A study of Mus musculus with 9 samples.

Results

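The genes described here encode the channel proteins of gap junctions and a related pannexin. They were chosen by symbol from the FPKM tables of mouse ovaries, and comprised Gja1, Gja4, Gja5, Gjb2, Gjc1 and Panx1, that is 6 of the 52025 genes listed. Of these, 4 (Gja1, Gja4, Gjc1 and Panx1) passed the filter on low values and entered the tests between days, which covered 15495 genes. Gja5 and Gjb2 had a mean FPKM below 1 on every day and are given by their levels.

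Connexins are membrane proteins that assemble into hexameric hemichannels, and hemichannels of neighbouring cells dock to form the channels of a gap junction. Ions, metabolites and cyclic nucleotides pass through these channels from cell to cell. In the ovarian follicle, the protein of Gja1 is known to join granulosa cells to each other and that of Gja4 to join the oocyte to the granulosa cells around it. Pannexins have a similar fold but act mainly as channels between the cell and the extracellular space, through which ATP is released.

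Ovaries of Kunming mice, an outbred stock, were compared at postnatal day (PD) 14, PD15 and PD16, without treatment or genetic modification, to follow the days on which the first follicular antra form. There were 9 libraries, 3 for each day. The labels give the tissue as ovary but name granulosa cells as the source, whereas the study's methods describe lysed ovaries. All 10 oocyte markers examined were above the filter, with Gdf9 at 206 to 274 FPKM and Zp3 at 263 to 416 FPKM, as were all 8 granulosa cell markers, with Amh at 168 to 261 FPKM. Markers of endothelial, smooth muscle, theca and blood cells were also detected, so the values below are those of mixed ovarian tissue. Fewer cells of a type and less RNA per cell cannot be told apart in such libraries.

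The deposited values are FPKM, that is fragments scaled by gene length and library depth. The steps between low values gave depths of 20.4 to 28.7 M fragments (median 24.2 M) in the 9 libraries, and 14590 to 14923 genes were above an FPKM of 1. Correlations of log2(FPKM + 1) across genes ranged from 0.985 to 0.990 within a day and from 0.977 to 0.984 across days.

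The connexins can be told from the pannexin by the pattern of cysteines in their extracellular loops, which hold the docking surface in shape. The coding sequence of the first such triplet, 36 bases or 12 codons long, is shown for the 5 connexins to make this difference visible, with the 3 cysteine codons in capitals. Each was read on the coding strand from the GENCODE M21 transcripts, and positions are those of the GRCm38 (mm10) build.
Gja1, chr10:56387706-56387741, plus strand, codons 54 to 65: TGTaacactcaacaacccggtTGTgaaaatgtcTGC
Gja4, chr4:127312774-127312809, minus strand, codons 54 to 65: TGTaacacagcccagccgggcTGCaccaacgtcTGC
Gja5, chr3:97050788-97050823, plus strand, codons 54 to 65: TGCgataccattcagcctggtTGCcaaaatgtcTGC
Gjb2, chr14:57100558-57100593, minus strand, codons 53 to 64: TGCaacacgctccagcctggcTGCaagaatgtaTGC
Gjc1, chr11:102800984-102801019, minus strand, codons 53 to 64: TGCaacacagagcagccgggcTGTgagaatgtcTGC

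Cysteines stand at codons 1, 8 and 12 of each stretch, although the bases between them differ. Compared with Gja1, the stretch had 24 of 36 bases the same in Gja4, 25 in Gja5, 25 in Gjb2 and 28 in Gjc1. A second cysteine triplet followed in each connexin, starting at codon 187 in Gja1 and Gja4, 185 in Gja5, 169 in Gjb2 and 209 in Gjc1. The first triplet was found in 19 of the 20 connexin genes in the tables, the exception being Gje1, and in 465 (2.10%) of 22099 genes with a coding transcript. Panx1 held no such triplet, nor did the other 2 pannexins. The encoded proteins were 382 residues long for Gja1, 333 for Gja4, 368 for Gja5, 226 for Gjb2, 396 for Gjc1 and 426 for Panx1.

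Between days, no member passed the adjusted threshold of 0.05 in limma. For PD15 against PD14, 0 of the 4 members tested were called, where 0.678% of all genes tested were called (0.336% higher and 0.342% lower). For PD16 against PD14, 0 of 4 were called against 4.25% of all genes (2.36% higher and 1.89% lower), and for PD16 against PD15, 0 of 4 against 0.729% (0.432% higher and 0.297% lower). At an unadjusted p under 0.05, the count was 1 of 4 for PD15 against PD14 (14.7% of all genes), 0 of 4 for PD16 against PD14 (22.8%) and 3 of 4 for PD16 against PD15 (14.1%). In the last of these comparisons, Gja1 was higher and Gja4 and Panx1 were lower at PD16 in the means, and in each of these 3 genes the 3 libraries of PD16 did not overlap those of PD15, as in 19.6% of all genes tested. No member was free of overlap in the other 2 comparisons, where 20.6% (PD15 against PD14) and 28.5% (PD16 against PD14) of all genes were. The F test over the 3 days called 3.03% of all genes and none of the members, with adjusted p = 0.207 for Gja1, 0.257 for Panx1, 0.341 for Gja4 and 0.800 for Gjc1 in limma. Before adjustment, 1 of 4 members, Gja1, was under 0.05 in this F test, as were 22.3% of all genes. The exact permutation test over the days gave p = 0.0786 for Gja1, 0.0786 for Panx1, 0.1 for Gja5, 0.146 for Gja4, 0.436 for Gjb2 and 0.643 for Gjc1 (two-sided, by the F statistic), with no adjustment.

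**Figure D1:**
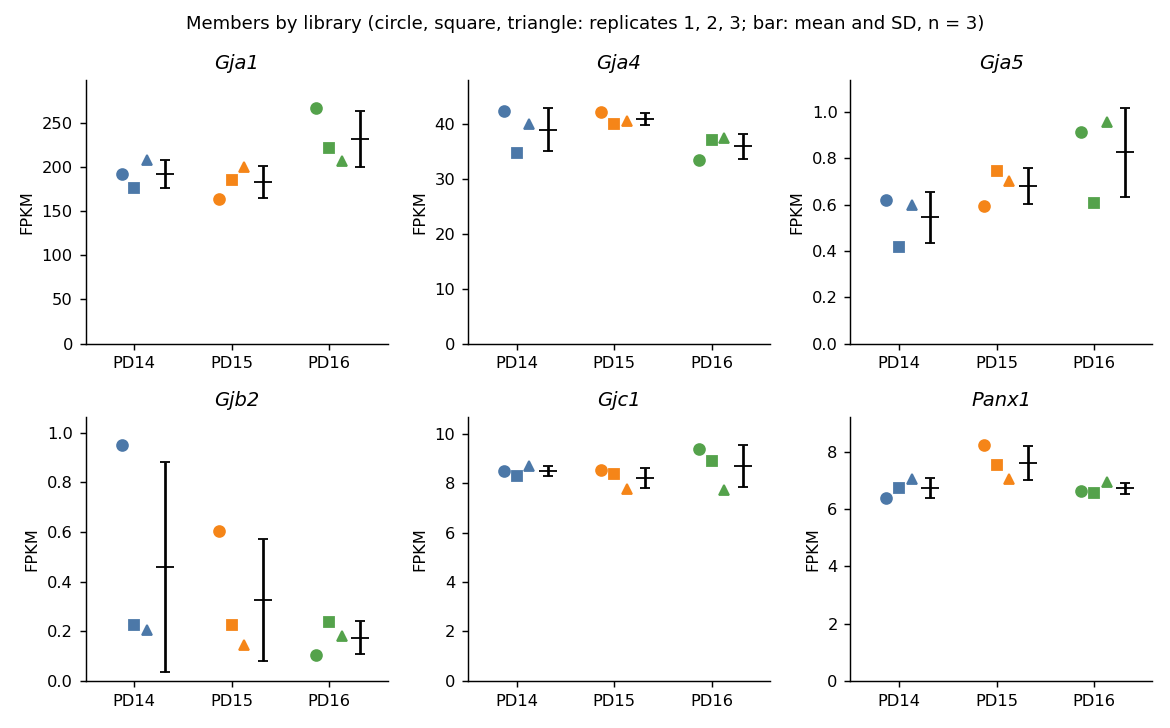
FPKM of the 6 members in each of the 9 libraries, by postnatal day, with a separate linear axis starting at 0 for each gene. Points are libraries, with circles, squares and triangles for replicates 1, 2 and 3, and the bars beside them are the mean and SD (n = 3). Gja1 sat between 164 and 267 FPKM and Gja4 between 33.4 and 42.4 FPKM, while Gjb2 was above 0.5 FPKM in 2 libraries only, 1 of PD14 and 1 of PD15.

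Gja1 (ENSMUSG00000050953, chr10:56377330-56402513, plus strand), the principal connexin between granulosa cells, was the most abundant member. Its FPKM were 192, 177 and 208 at PD14, 164, 186 and 200 at PD15, and 267, 222 and 206 at PD16. All 3 PD16 libraries lay above all PD15 libraries, with the lowest PD16 library close to the highest PD15 library, and the PD14 libraries overlapped both. The means were 193 ± 15.9 at PD14, 183 ± 18.2 at PD15 and 232 ± 31.4 at PD16 (SD, n = 3). On the log2(FPKM + 1) scale, PD16 exceeded PD15 by 0.33, with a 95% interval of 0.07 to 0.60 before adjustment and adjusted p = 0.233 in limma. The difference between PD16 and PD14 was 0.26 (adjusted p = 0.221, limma) and became 0.16 without PD16 replicate 1, the library with the highest value. Between PD15 and PD14 it was -0.07 (adjusted p = 0.821, limma), well within the spread between libraries. Between 42847 and 65255 fragments per library stood behind these values, so counting error was small beside the spread.

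Gja4 (ENSMUSG00000050234, chr4:127311421-127314039, minus strand) encodes the connexin that the oocyte contributes to its junctions with granulosa cells, and it is also known in arterial endothelium. Its FPKM were 42.4, 34.7 and 40.0 at PD14, 42.2, 40.0 and 40.6 at PD15, and 33.4, 37.1 and 37.4 at PD16. The PD16 libraries were all lower than the PD15 libraries, while PD14 spanned most of the range because its replicate 2 was low. The means were 39.0 ± 3.94, 40.9 ± 1.10 and 35.97 ± 2.23 (SD, n = 3). The difference of PD16 from PD15 was -0.18 on the log2 scale, with a 95% interval of -0.36 to -0.01 before adjustment, and adjusted p = 0.340 in limma. The differences from PD14 were 0.07 at PD15 and -0.11 at PD16, with adjusted p of 0.719 and 0.439 in limma. The latter difference was -0.05 without PD14 replicate 1, -0.06 without PD16 replicate 1 and -0.19 without PD14 replicate 2.

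The summed level of the oocyte markers was low where Gja4 was low. The summed FPKM of the 10 oocyte markers was 1682, 1411 and 1734 at PD14, 1908, 1810 and 1892 at PD15, and 1292, 1340 and 1398 at PD16. The sum was lowest in the same 4 libraries in which Gja4 was lowest, the 3 of PD16 and PD14 replicate 2. For PD16 against PD15, all 10 oocyte markers had a negative difference, with a median of -0.49 where that of all genes was 0.00906, and 2 of them, Zp2 and Nlrp5, fell past the adjusted threshold. Zp2, a zona pellucida glycoprotein, fell by 0.61 and Nlrp5, a component of the oocyte's subcortical complex, fell by 0.72 on the log2 scale (adjusted p = 0.0427 and 0.0439 in limma). For PD16 against PD14, 7 of the 10 oocyte markers were lower and 3 higher, with a median of -0.25, and the 1 called moved opposite to the mean of Gja4: Bmp15, a growth factor of the oocyte, rose by 0.39 (adjusted p = 0.0331, limma). For PD15 against PD14, 9 of 10 were higher, with a median of 0.22, and Nlrp5 was called. The summed endothelial markers, of the other cell type in which Gja4 is known, were between 125 and 138 FPKM in all libraries, although single markers moved apart. For PD15 against PD14, 9 of the 10 were lower, with a median of -0.09, and Sox18, a transcription factor of endothelium, rose by 0.47 (adjusted p = 0.0356, limma). For PD16 against PD14, 8 of 10 were lower, and Tie1, an endothelial receptor tyrosine kinase, fell by 0.25 (adjusted p = 0.0458, limma). For PD16 against PD15, 5 were higher and 5 lower, with a median of 2.3e-05, and 0 were called in limma (2 at an unadjusted p under 0.05). The part of oocyte and endothelial content in the Gja4 values was not tested.

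**Figure D2:**
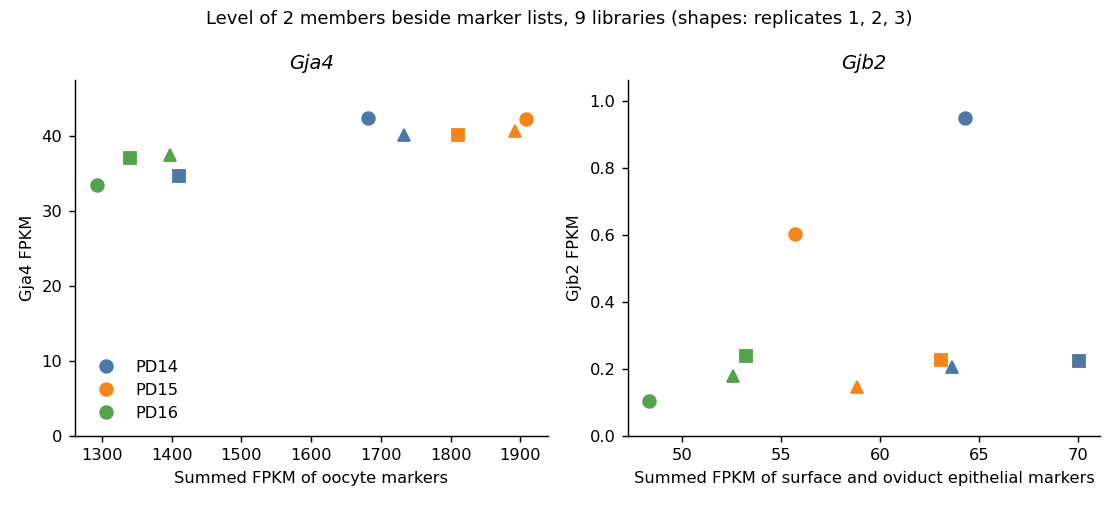
Left, FPKM of Gja4 against the summed FPKM of 10 oocyte markers; right, FPKM of Gjb2 against the summed FPKM of 10 surface and oviduct epithelial markers, both with a linear y axis from 0 and an x axis that does not start at 0. Each point is 1 of 9 libraries, coloured by day and shaped by replicate number. The 4 libraries lowest in oocyte markers, 1292 to 1411 FPKM, were also the 4 lowest in Gja4. The 2 libraries high in Gjb2 had epithelial sums of 64.3 and 55.7 FPKM, within the range of the others.

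Granulosa cell markers differed in how they lay beside Gja1. Their summed FPKM, most of it from Inha (1780 to 2629 FPKM), ranged from 2876 to 3549 at PD14, from 2704 to 3135 at PD15 and from 2833 to 3362 at PD16, and PD16 replicate 1, the library with the most Gja1, had a sum of 2957. Fshr, the receptor of follicle-stimulating hormone, was highest in that library, with 11.6, 14.97 and 16.0 FPKM at PD14, 13.2, 12.3 and 12.97 at PD15, and 21.2, 16.9 and 15.6 at PD16. As with Gja1, all its PD16 values lay above all PD15 values, and so did those of Nr5a2, a nuclear receptor (127 to 139 FPKM against 109 to 122). Foxl2, a transcription factor of granulosa cells, lay the other way, with all PD16 values (128, 145 and 143 FPKM) below all PD15 values (183, 175 and 157). Over the 8 markers, 4 were higher and 4 lower at PD16 against PD15, and 0 were called in limma (3 at an unadjusted p under 0.05). For PD16 against PD14, 3 of the 8 were higher and 5 lower, with a median of -0.06, and 4 had an unadjusted p under 0.05. The 1 called, where 4.25% of all genes were, was Amh, the anti-Mullerian hormone of growing follicles, which rose by 0.47 (adjusted p = 0.0223, limma). The part of granulosa cell content in the Gja1 values was not tested.

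The ratio of Gja1 to Gja4 within a library was examined because the scaling of a library nearly cancels in it. In FPKM it was 4.54, 5.09 and 5.21 at PD14, 3.89, 4.64 and 4.93 at PD15, and 7.99, 5.995 and 5.51 at PD16. Each PD16 library had a higher ratio than each library of the other days. The means were 4.95 ± 0.357, 4.49 ± 0.536 and 6.50 ± 1.32 (SD, n = 3). As a difference of log2(FPKM + 1) between the 2 genes, which is the value tested, the mean at PD16 exceeded that at PD14 by 0.37 and that at PD15 by 0.52. The exact permutation test over the 280 groupings of the libraries gave p = 0.0107 (two-sided, by the F statistic), where the smallest p it can give is 0.00357. It was 1 of 7 exact tests made, the other 6 being of the single members, and it was not adjusted for them. Leaving out any of 4 libraries moved it past 0.05: the exact p was 0.0607 without PD14 replicate 2 or without PD14 replicate 3, 0.0571 without PD15 replicate 1 and 0.0679 without PD16 replicate 1. Without the last of these, the difference between PD16 and PD14 was 0.22. The oocyte marker sums given above also differ between the days.

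**Figure D3:**
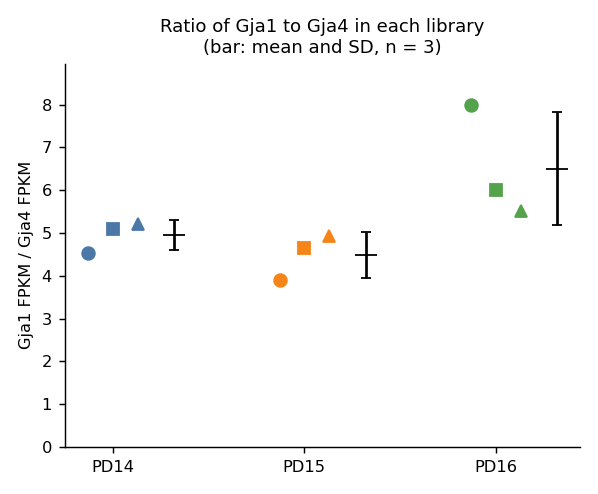
Ratio of Gja1 FPKM to Gja4 FPKM in each of the 9 libraries by postnatal day, on a linear axis from 0. Points are libraries, shaped by replicate number, and bars are the mean and SD (n = 3). The 3 PD16 libraries lie between 5.51 and 7.99, above the 6 libraries of PD14 and PD15, which lie between 3.89 and 5.21.

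Gjc1 (ENSMUSG00000034520, chr11:102799579-102819700, minus strand) encodes a connexin known from smooth muscle and cardiac conducting tissue and detected in granulosa cells. Its FPKM were 8.52, 8.31 and 8.71 at PD14, 8.53, 8.37 and 7.76 at PD15, and 9.40, 8.91 and 7.74 at PD16. It varied least of the members, with a coefficient of variation of 6.17% over the 9 libraries, and its days overlapped in every comparison. The differences were -0.05 for PD15 against PD14, 0.02 for PD16 against PD14 and 0.07 for PD16 against PD15, and their 95% intervals before adjustment stayed between -0.21 and 0.23. The adjusted p were 0.814, 0.886 and 0.740 in limma. With single libraries left out, the differences ran from -0.069 to -0.0093, from -0.031 to 0.094 and from 0.014 to 0.14, in that order.

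Panx1 (ENSMUSG00000031934, chr9:15002128-15045478, minus strand), the widely expressed pannexin that releases ATP, had its highest mean at PD15. Its FPKM were 6.39, 6.75 and 7.07 at PD14, 8.23, 7.55 and 7.05 at PD15, and 6.66, 6.57 and 6.96 at PD16. All PD15 libraries lay above all PD16 libraries, but PD15 replicate 3 lay just below the highest PD14 library. The means were 6.74 ± 0.336, 7.61 ± 0.595 and 6.73 ± 0.201 (SD, n = 3). PD15 exceeded PD14 by 0.15 on the log2 scale (95% interval of 0.0056 to 0.30 before adjustment) and PD16 was below PD15 by the same amount (-0.15), with adjusted p of 0.321 and 0.330 in limma. Without PD15 replicate 1, these differences were 0.10 and -0.10. PD16 and PD14 differed by -0.00133, with a 95% interval of -0.15 to 0.15 before adjustment. These values rest on 868 to 1264 fragments per library.

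**Figure D4:**
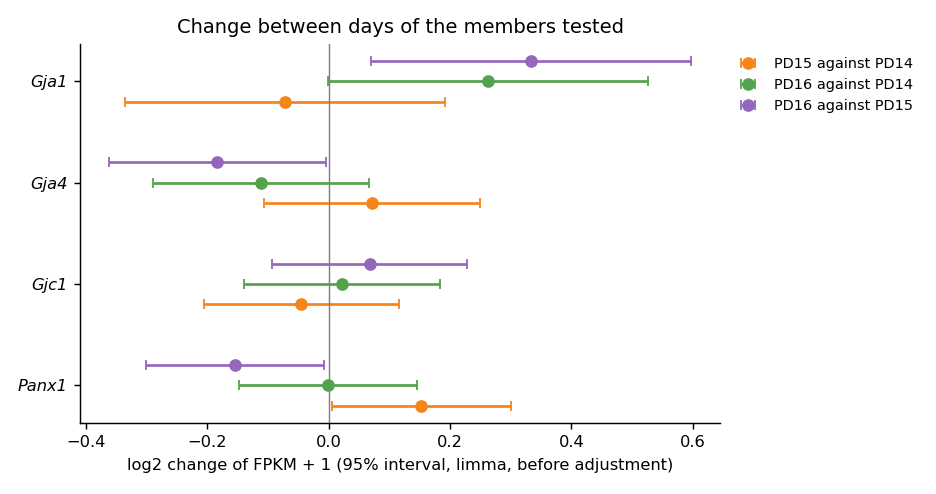
Log2 change of FPKM + 1 between days for the 4 members tested, with 95% intervals from limma before adjustment and colours for the 3 comparisons. Points to the right of 0 were higher on the later day. For PD16 against PD15 the intervals of Gja1 (0.07 to 0.60), Gja4 (-0.36 to -0.01) and Panx1 (-0.30 to -0.01) leave out 0 before adjustment, as does that of Panx1 for PD15 against PD14 (0.0056 to 0.30), and none of the 12 changes passed the adjusted threshold.

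Gja5 (ENSMUSG00000057123, chr3:96904693-97077416, plus strand), a connexin of arterial endothelium and the atrium, was below the filter. Its FPKM were 0.618, 0.418 and 0.598 at PD14, 0.595, 0.746 and 0.703 at PD15, and 0.913, 0.606 and 0.958 at PD16. The mean was lowest at PD14 (0.545 ± 0.110), intermediate at PD15 (0.681 ± 0.0779) and highest at PD16 (0.826 ± 0.192), and the libraries of neighbouring days overlapped, as did those of PD14 and PD16 because of PD16 replicate 2. The values rest on 58 to 140 fragments per library. The library with 58 had an exact Poisson 95% interval of 44.0 to 75.0 fragments and the library with 140 an interval of 118 to 165, which cover counting error only. In the fit without a filter, PD16 exceeded PD14 by 0.24 (adjusted p = 0.348, limma). In the same fit the difference was 0.12 for PD15 against PD14 and 0.11 for PD16 against PD15, with adjusted p of 0.719 and 0.768 in limma. The summed endothelial markers ranged from 125 to 133 FPKM at PD14, from 134 to 138 at PD15 and from 128 to 132 at PD16. Sox18 alone was higher at PD15 than at PD14 in mean log2 level, at 35.5, 37.1 and 33.5 FPKM at PD14 and 53.9, 49.98 and 44.8 at PD15, while the other 9 were lower. Their part in the Gja5 values was not tested.

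Some of the fragments counted for Gja5 could belong elsewhere. Its annotated span covers Gpr89 on the opposite strand, which had 5.79 to 7.49 FPKM, and 165 exon bases (2.87% of the exons of Gja5) lie in exons of both genes. Whether counting used the strand is not given in the sources used here. In addition, 13.2% of the 50-base stretches of Gja5 transcripts also occur in Zfp697. The Gja5 level is therefore uncertain. In the other 5 members at most 0.0957% of such stretches occur in another gene.

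Gjb2 (ENSMUSG00000046352, chr14:57098600-57104702, minus strand), a connexin of epithelia and of the inner ear, was the least abundant member. Its FPKM were 0.950, 0.224 and 0.204 at PD14, 0.604, 0.227 and 0.145 at PD15, and 0.105, 0.238 and 0.180 at PD16. Replicate 1 of PD14 and replicate 1 of PD15 stood above the other 7 libraries, and replicate 1 of PD16 had the lowest value of all. These libraries held 56, 37 and 6 fragments, with exact Poisson 95% intervals of 42.3 to 72.7, 26.1 to 51.0 and 2.20 to 13.1, while the remaining 6 held 10 to 13. These intervals do not hold the spread between ovaries. The coefficient of variation was 86.6% over the 9 libraries, the largest of the members. In the fit without a filter the difference between PD16 and PD14 was -0.28 (adjusted p = 0.609, limma), with a 95% interval of -0.73 to 0.18 before adjustment. The summed surface and oviduct epithelial markers were 64.3, 70.1 and 63.6 FPKM at PD14, 55.7, 63.1 and 58.9 at PD15, and 48.4, 53.3 and 52.6 at PD16, so the libraries high in Gjb2 were not the highest in this sum, which comes mostly from keratins and Upk3b. Single markers of the list differed among themselves. Cdh1, the epithelial cadherin, was highest in PD14 replicate 1 (3.85 FPKM), next in PD15 replicate 1 (3.54) and lowest in PD16 replicate 1 (2.15). Ovgp1, a glycoprotein of the oviduct, was highest, next and lowest in the same libraries (0.779, 0.629 and 0.153 FPKM). Upk3b, a uroplakin, was instead lowest in PD14 replicate 1 (7.76 FPKM), and Upk1b, another uroplakin, was lowest in PD15 replicate 1 (0.733) and highest in PD16 replicate 1 (1.59). Among the list, Krt8, Krt18 and Krt19, which encode keratins of simple epithelia, fell at PD16 against PD14 by 0.48, 0.45 and 0.42 (adjusted p = 0.0222, 0.0121 and 0.0335 in limma), and the other 4 tested were not called. Their part in the Gjb2 values was not tested.

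Since FPKM is scaled by length, the levels of the genes were set side by side. The lengths that gave whole fragments join all annotated exons of a gene, with 10257 bases for Gja1 and 1685 for Gja4. Ranks, ratios and shares between genes depend on these lengths, and which transcripts were present was not examined. Gja1 ranked 188th in mean level among the 15495 genes tested, with 98.8% of them below it, and Gja4 ranked 1398th, with 91.0% below. Gjc1 (54.9% below) and Panx1 (49.7% below) were near the middle. Gja1 exceeded Gja4 by 3.89 to 7.99 times in each library, and Gja4 exceeded Gjc1 by 3.56 to 5.23 times. Gjc1 was above Panx1 in all 9 libraries, by 1.04 to 1.41 times, but their ranges over libraries overlapped. Panx1 exceeded Gja5 by 7.26 to 16.2 times. Gja5 was above Gjb2 in 7 of 9 libraries, and their ranges overlapped.

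Gja1 supplied most of the connexin transcripts. Its share of the summed FPKM of the 20 connexins was 76.9%, 78.2% and 78.8% at PD14, 74.0%, 77.1% and 78.6% at PD15, and 84.4%, 80.7% and 79.9% at PD16. The share of Gja4 ranged from 10.6% to 19.0%, with its lowest value in PD16 replicate 1 and its highest in PD15 replicate 1. Gjc1 contributed 2.97% to 3.85%, Gja5 0.185% to 0.370% and Gjb2 0.0331% to 0.379%. The connexin sum itself was 222 to 316 FPKM.

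The other connexins and pannexins in the tables, 17 in number, were lower than Gja1, Gja4, Gjc1 and Panx1 in mean level. Gjb1, a connexin of liver and Schwann cells, passed the filter at 0.639 to 1.73 FPKM and was not called between days, with adjusted p of 0.355 or more in limma. It was above Gja5 in 8 of 9 libraries and below Panx1 in all 9. Gje1 was listed at 0 in every library.

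**Figure D5:**
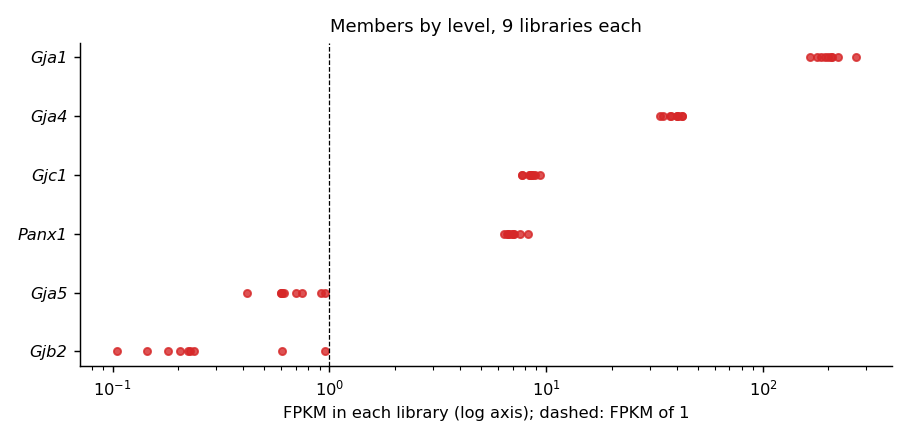
FPKM of the 6 members in each of the 9 libraries, ordered by mean level, on a log axis. Each point is 1 library and the dashed line marks an FPKM of 1. Gja1 and Gja4 stand apart from the rest at 164 to 267 and 33.4 to 42.4 FPKM, Gjc1 and Panx1 lie between 6.39 and 9.40 FPKM, and Gja5 and Gjb2 lie below the dashed line.

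Some connexin genes lie near a member. Gja4 lies on the same strand as Gjb5, at 40.8 kb from its span, which reached at most 0.289 FPKM against the 33.4 FPKM or more of Gja4. Gjb2 lies on the same strand as Gjb6, at 18.6 kb, and Gja3, at 40.5 kb, which reached at most 0.0719 and 0.203 FPKM. Gjb2 itself had 0.105 to 0.950 FPKM, so its range overlapped that of Gja3.

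Proteins that bind, modify or turn over connexins were examined as a list of 36 genes, of which 34 were tested. Abundant genes among them were Nedd4 (mean FPKM 213), a ubiquitin ligase that acts on the protein of Gja1, and Ctnnb1 (135) and Ctnna1 (82.3), catenins of the adherens junction. None of these 3 was called in any comparison. For PD15 against PD14, 20 were higher and 14 lower with a median log2 difference of 0.02, and 0 were called in limma (3 at an unadjusted p under 0.05). For PD16 against PD14, 17 were higher and 17 lower with a median of -0.00471, and 1 was called (10 at an unadjusted p under 0.05). For PD16 against PD15, 21 were higher and 13 lower with a median of 0.03, and 0 were called in limma (3 at an unadjusted p under 0.05). Over all genes tested, the medians were 0.00651, 0.00934 and 0.00906, the shares called 0.678%, 4.25% and 0.729%, and the shares at an unadjusted p under 0.05 14.7%, 22.8% and 14.1%.

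The gene called was Ubqln4, which encodes a ubiquilin that binds the protein of Gja1 and promotes its degradation by the proteasome. Its FPKM were 22.2, 23.4 and 22.9 at PD14, 26.1, 23.8 and 22.6 at PD15, and 28.2, 29.5 and 27.9 at PD16. Every PD16 library was above every library of the other days, and PD14 and PD15 overlapped. It rose by 0.31 (SE 0.0610) at PD16 against PD14, with adjusted p = 0.0294 in limma. The call was lost when any 1 of the 6 libraries of PD14 or PD16 was left out (adjusted p = 0.0524 to 0.0964, limma), with the difference between 0.29 and 0.33.

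Gap junctions carry cyclic GMP from granulosa cells to the oocyte, where it keeps meiosis arrested, and 5 genes of this signalling were examined. Nppc, which encodes C-type natriuretic peptide of the granulosa cells, had FPKM of 29.0, 21.6 and 30.6 at PD14, 18.6, 18.7 and 18.5 at PD15, and 19.1, 16.9 and 14.6 at PD16. All PD14 libraries were above all libraries of the later days. It fell by 0.65 (SE 0.128) at PD16 against PD14 (adjusted p = 0.0294, limma), and the difference was -0.50 for PD15 against PD14 (adjusted p = 0.123) and -0.14 for PD16 against PD15 (adjusted p = 0.692). The call was lost without PD14 replicate 1 or 3 or any PD16 library (adjusted p = 0.0588 to 0.101, limma), with differences from -0.74 to -0.55. Npr2, its receptor guanylyl cyclase, had FPKM of 22.8, 24.2 and 19.0 at PD14, 27.4, 19.3 and 21.6 at PD15, and 29.5, 26.6 and 29.6 at PD16, a difference of 0.37 between PD16 and PD14 with adjusted p = 0.127 in limma. The other 3 genes, Gpr3, Pde3a and Adcy3, which set cyclic AMP in the oocyte, were at 2.40 to 5.91 FPKM and were not called.

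The genes with the profile most like each member over the 9 libraries were found by Pearson's r of log2(FPKM + 1), as a description. Closest to Gja1 were Tsen54 (0.965), Zfp180 (0.956) and Tex30 (0.954). Closest to Gja4 was Mt4 (0.978), at a mean of only 1.01 FPKM, followed by 2 genes without a symbol. Gja5 was closest to Bambi-ps1 (0.922), Ogfod1 (0.920) and Ulk2 (0.913), and Gjb2 to Gpr173 (0.935), Gm25086 (0.917) and Gm10785 (0.911). Closest to Gjc1 were Gm10052 (0.939), Zfp775 (0.931) and Ptpa (0.918), and the closest gene with a symbol to Panx1 was Pabpc1l (0.942). Among the members themselves, r ranged from -0.59, between Gja1 and Gja4, to 0.64, between Gja4 and Gjb2. All points share the same 9 libraries, and with 15495 genes compared, values of this size occur for the best of many.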

How the data were processed

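Ovarian RNA of 9 libraries, 3 for each of PD14, PD15 and PD16, had been sequenced on an Illumina HiSeq after preparation with a NEBNext Ultra kit. The authors deposited FPKM, fragments scaled by exon length and mapped fragments of the library, in 1 table per library. Per the submitters' processing notes, HISAT2 2.0.5 and mm10 were used, and the counting tool and annotation are not given in the sources used here. FPKM were used as deposited. In each library 94.2% to 94.7% of low values (up to 20 fragments) were whole multiples of the step of 1 fragment within 0.02, with exon lengths from GENCODE M21, in which 50462 identifiers matched. This gave fragments per gene and exact Poisson 95% intervals, which cover counting error only.

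The test took genes whose mean FPKM exceeded 1 on any day and used log2(FPKM + 1), a scale that understates the change of low genes, in limma with an intensity trend. All 9 libraries entered 1 model, and p-values were two-sided and adjusted by the Benjamini-Hochberg method over all 15495 genes. The days' labels give replicates but not whether litters were shared, so p-values measure the spread between these libraries. Tested on simulated data for PD16 against PD14 (200 of 15495 genes changed), the fit recovered 0.5% of changes of 0.25, 55% of 0.5, 89% of 1 and 100% of 2 on the log2 scale. Single values were compared by exact permutation over 280 groupings. No 2 libraries held identical values.

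The members and lists were chosen with earlier results of these data known. The rule for named genes took the 6 members, other connexins and pannexins above the filter or at 0, called genes of the 2 pathway lists or up to 4 by level, the 3 genes most correlated with each member, and up to 3 genes of each marker list. Marker genes beyond 3 in a list, among them Cdh1, Ovgp1, Upk3b, Upk1b, Bmp15, Inha and Foxl2, were chosen after their values were seen. Alternatives were other pseudocounts (0.1 and 0.5), filters, scalings, limma settings, a replicate block and leaving out each library. The symbol Ccn3 matched no row, and some genes that the rule names are not reported here. Versions were R 4.3.3 with statmod 1.5.0 and limma 3.58.1, and Python 3.11.15 with Biopython 1.88, SciPy 1.17.1, pandas 2.3.3, Matplotlib 3.10.9 and NumPy 2.4.6.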

Additional observations from a re-analysis of the deposited data

How the results depend on the processing

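No member was called in any of the 3 comparisons between days under any alternative, so the result of 0 members called did not depend on the settings tried. Over the 10 settings other than leaving out a library, 120 member values were computed, none changed direction and the lowest adjusted p was 0.105 in limma. With single libraries left out, 7 small differences changed sign. Gja1 for PD15 against PD14 became 0.0057 without PD15 replicate 1 (range -0.14 to 0.0057) and Gja4 for the same days became -0.0088 without PD14 replicate 2 (range -0.0088 to 0.13). For PD16 against PD14, Gjc1 became -0.031 without PD16 replicate 1 (range -0.031 to 0.094) and Panx1 became 0.000602, 0.029, 0.0054 and 0.013 without PD14 replicate 2, PD14 replicate 3, PD16 replicate 1 and PD16 replicate 2 (range -0.034 to 0.029). The log2 ratio of Gja1 to Gja4 differed between PD16 and PD14 by 0.22 to 0.48 when single libraries were left out (exact permutation p from 0.0107 to 0.0679).

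Counts over all genes depended more on the settings. Without the filter, the calls were 29 for PD15 against PD14, 172 for PD16 against PD14, 24 for PD16 against PD15 and 95 in the F test, against 105, 659, 113 and 469. A mean FPKM above 5 left 63 for PD15 against PD14, and fitting only the 2 days compared gave 47 for PD15 against PD14 and 320 for PD16 against PD14. Leaving out single libraries gave 3 to 92, 93 to 666, 14 to 125 and 74 to 352 calls. The cause was not tested. With the replicate number as a block, the calls were 24, 227, 56 and 127. The number is not known to pair libraries. Same-numbered libraries of different days were correlated after the mean of each day was subtracted from each gene. These correlations of deviations ranged from -0.21 to 0.16 and exceeded 0.1 in 2 of 9 pairs. Ubqln4 and Nppc, examined under the alternatives after their calls were seen, were also lost without the filter (adjusted p = 0.0589 and 0.0822, limma) and with the replicate block (0.0668 and 0.0581), and Nppc was lost with only the 2 days fitted (0.0655). In simulated data, 0.5% of changes of 0.25 and 55% of changes of 0.5 on the log2 scale were recovered for PD16 against PD14, where the differences of the members ran from -0.11 to 0.26. For Gja5 and Gjb2, 58 to 140 and 6 to 56 fragments per library limit the precision.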
